A study of Rattus norvegicus with 10 samples.

Results

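The genes described here encode the nuclear subunits of respiratory complex III, complex IV and ATP synthase, together with cytochrome c. They were chosen by name, as every symbol that begins with Uqcr, with Cox4 to Cox8 or with Atp5, plus Cyc1 and Cycs. This choice was made with earlier results of these data known. Of 39784 gene names in the deposited tables, 110 fitted this rule, and 63 of them were pseudogene names and were left out. Of the 47 that remained, 45 had a mean of at least 1 TPM (a level per transcript length, with all libraries brought to an equal total) and are the members, out of 13420 genes tested at that level. They are 10 genes of complex III and cytochrome c, 17 of complex IV and 18 of ATP synthase. Cox7b2 and Cox8c lay below 1 TPM on average.

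In the inner mitochondrial membrane, complex III passes electrons from ubiquinol to cytochrome c, and complex IV passes them from cytochrome c to oxygen. Both pump protons, and ATP synthase uses the return of the protons to make ATP. Most subunits of the 3 complexes are nuclear genes whose proteins are imported, a few are encoded by mitochondrial DNA, and cardiac muscle carries both in very large amounts. Several complex IV subunits exist in a widely expressed form and in a form of heart or skeletal muscle.

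RNA was measured in cultured neonatal rat cardiomyocytes, labelled wild type, that received an adenovirus (Ad-Xon) for 1 of 2 forms of YAP, the transcriptional coactivator of the Hippo pathway. YAP5SA is an activated form in which inhibitory phosphorylation sites are serine-to-alanine changes. YAP5SA-S94A carries a further change that prevents binding to TEAD, the DNA-binding partner of YAP. Each form had 2 poly(A) RNA libraries, called biological replicates 1 and 2, and it is not stated that the cultures were separate, so p-values measure the spread between these libraries only. No RNA library of uninfected cells or of cells with a control virus was used, so each difference sets 1 YAP form against the other and says nothing of how either compares to untreated cells. CUT&RUN samples, 6 in number, were not analysed here.

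The tables corresponded to between 4.02 and 5.10 gigabases of aligned sequence per library, and log2 levels correlated at 0.985 within YAP5SA, at 0.991 within YAP5SA-S94A and at 0.926 to 0.932 between the forms, across genes. Yap1 itself was at 104.9 and 99.07 TPM in YAP5SA and at 116.5 and 121.4 TPM in YAP5SA-S94A, which does not check the labels, since the origin of the viral YAP sequence is not given in the sources used here. Ccn1, a gene known as a target of YAP and TEAD, was at 521.6 and 438.3 TPM in YAP5SA and at 39.85 and 36.1 TPM in YAP5SA-S94A. Cardiomyocyte markers summed to 18422 and 18540 TPM in YAP5SA and to 18099 and 18160 TPM in YAP5SA-S94A. These near-equal sums rest on Nppa, which encodes atrial natriuretic peptide, and without it the other 7 markers summed to 8796 and 9066 TPM in YAP5SA and to 14356 and 14446 TPM in YAP5SA-S94A. Within that list Nppa rose and 6 of 8 genes fell, with a median log2 fold change of -0.85. Of all genes tested, 15.5% were lower at a limma adjusted p under 0.05. The 6 ran from Myh6 (log2 fold change -1.73) and Tnni3 (-1.55) to Tnnt2 (-0.42). Actn2 went the other way, at 851 and 737 TPM in YAP5SA and 651 and 652 TPM in YAP5SA-S94A. Its log2 fold change was 0.28 (limma adjusted p = 0.067). In bulk RNA, fewer cells of a type and less RNA per cell cannot be told apart. Entries of the mitochondrial chromosome took 7.53% and 10.2% of TPM in YAP5SA replicates 1 and 2 and 12.6% and 14.0% in YAP5SA-S94A replicates 1 and 2, so this share moves with the form. The part of either in the differences of the members was not tested.

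Members that passed the test of a difference between the YAP forms were lower with YAP5SA, Cox8b by the most (log2 fold change -1.38) and the others from -0.79 (Atp5if1) to -0.29 (Atp5mf). Of the 45 members, 20 fell (limma, adjusted p under 0.05 over all genes tested, hereafter called), where 15.5% of all genes tested were called lower. None rose by the same test, with 0 higher at an unadjusted p under 0.05 either, where 17.4% of all genes were called higher. The log2 fold change, taken on log2(TPM + 1) with YAP5SA-S94A subtracted from YAP5SA, was below 0 in 42 members, and its median was -0.31, beside a median of 0.00 over all genes. In 32 members both YAP5SA libraries lay below both YAP5SA-S94A libraries, where 33.8% of all genes tested did so. The members are abundant: 41 of them had a mean of 200 TPM or more, and 19 of these were called lower, where 24.6% of the 731 genes at that level were called lower and the median over those genes was 0.06.

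How many members were called depended on the library left out. Of all genes tested, 32.9% were called in either direction. Without YAP5SA-S94A replicate 1 the number of members called lower was 6 (background 9.78%), and with replicate 2 of that form left out it was 7 (background 9.79%). Without YAP5SA replicate 1 it was 26 (background 20.4%), and with the mitochondrial chromosome left out of the TPM sum it was 30 (background 19.6%). At an adjusted p under 0.01 it was 8 (background 7.79%). With no filter on low genes it was 9 (background 6.62%) and with no intensity trend in the variance it was 8 (background 12.7%). Uqcrc1 and Cox6a2 were not called in FPKM, and Atp5mc1 and Cox6a2 were not called without YAP5SA replicate 2. Atp5if1, Atp5pb, Atp5f1b, Atp5f1a, Cox8b and Cox5a were called under each of the 15 other settings tried, each left-out library included. The 20 called members had a log2 fold change below 0 in every one of these settings. Over all 45 members the number below 0 was 37 without YAP5SA replicate 1, against 42 with every library.

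**Figure D1:**
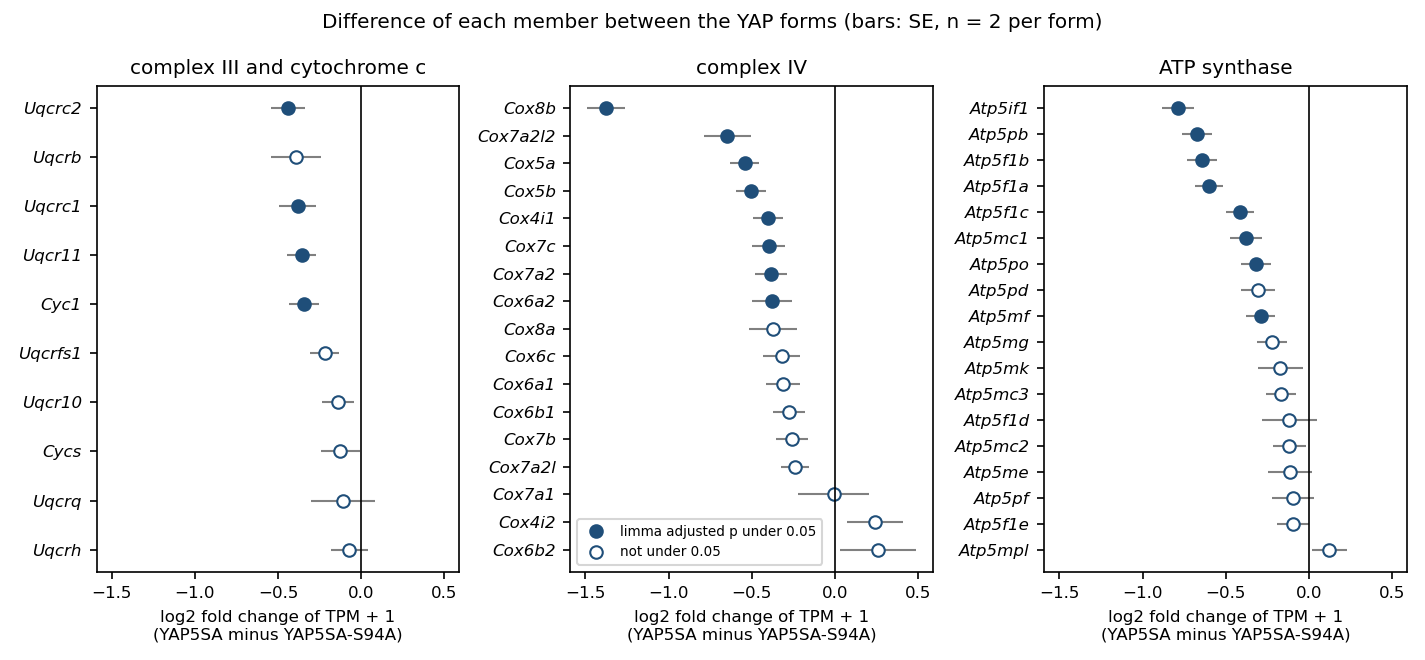
Log2 fold change of TPM + 1 (YAP5SA minus YAP5SA-S94A, x axis) of each of the 45 members in 3 panels by complex; bars are the SE with n = 2 libraries per form, and filled points have a limma adjusted p under 0.05. The points of 42 members lie left of 0, Cox8b lies farthest left at -1.38, and the 3 points right of 0 are open.

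In complex III and cytochrome c, 4 of 10 genes fell, where 15.5% of all genes were called lower. All 10 had a log2 fold change below 0, and the median was -0.28. The genes that fell were both core proteins, cytochrome c1 and 1 small subunit. Uqcrc2, core protein 2, was at 360 and 422 TPM in YAP5SA and at 522 and 537 TPM in YAP5SA-S94A (limma log2 fold change -0.44, SE 0.103, adjusted p = 0.0165). Uqcrc1, core protein 1, was at 494 and 407 TPM against 588 and 581 TPM (-0.38, SE 0.111, limma adjusted p = 0.0361). In both genes the 2 forms did not overlap, and the YAP5SA libraries lay farther apart from each other than the YAP5SA-S94A libraries did.

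Cyc1, the cytochrome c1 subunit that hands electrons to cytochrome c, was at 572 and 520 TPM in YAP5SA and at 684 and 699 TPM in YAP5SA-S94A (limma log2 fold change -0.34, SE 0.0908, adjusted p = 0.0262). Uqcr11, a small subunit, was at 502 and 471 TPM against 639 and 608 TPM (-0.36, limma adjusted p = 0.0195). These genes also did not overlap between the forms. Uqcrfs1, the Rieske iron-sulfur protein, was at 295 and 287 TPM against 338 and 339 TPM (-0.22, SE 0.0849) and was not called (limma adjusted p = 0.0882). Its libraries did not overlap either, at a smaller difference than in the core proteins.

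Cycs, cytochrome c itself, was at 280 and 343 TPM in YAP5SA and at 329 and 347 TPM in YAP5SA-S94A (limma log2 fold change -0.13, SE 0.116, adjusted p = 0.45). The forms overlapped, and YAP5SA replicate 1 was the low library. Without that replicate the log2 fold change of Cycs was 0.02, and without YAP5SA replicate 2 it was -0.27, so its direction rests on 1 library. Per unit of Cyc1, the TPM of Cycs was 0.488 and 0.659 in YAP5SA and 0.481 and 0.496 in YAP5SA-S94A. The 4 complex III genes not named so far, which are small subunits, ranged in log2 fold change from -0.39 to -0.07 and none was called. With no filter 0 genes of the 10 were called lower (background 6.62%), and with no intensity trend 0 (background 12.7%). Without either YAP5SA-S94A library the share of the 10 was also below that of all genes.

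Complex IV held the largest single difference, in Cox8b. In complex IV 8 of 17 genes fell, where 15.5% of all genes were called lower. In 15 the log2 fold change was below 0, and the median was -0.37. Cox5a, a subunit on the matrix side of the complex, was at 853 and 851 TPM in YAP5SA and at 1280 and 1205 TPM in YAP5SA-S94A (limma log2 fold change -0.54, SE 0.0856, adjusted p = 0.00312). Cox5b, the zinc-binding subunit, was at 1132 and 1048 TPM against 1587 and 1502 TPM (-0.50, SE 0.0903, limma adjusted p = 0.00552). The gaps between the forms in these 2 genes were wider than those between replicates.

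Cox4i1, the common form of the largest nuclear subunit, was at 1780 and 1680 TPM in YAP5SA and at 2349 and 2224 TPM in YAP5SA-S94A (limma log2 fold change -0.40, SE 0.0892, adjusted p = 0.013). Cox7c, a small membrane subunit, was at 895 and 823 TPM against 1193 and 1074 TPM (-0.40, limma adjusted p = 0.0188). Neither gene overlapped between the forms. Cox7a2l2, whose symbol marks it as a close copy of Cox7a2l, was at 10.9 and 11.6 TPM against 18.5 and 17.9 TPM (-0.65, SE 0.139, limma adjusted p = 0.0116). It is the only called member under 200 TPM, and its value is uncertain because reads of near-identical copies may be divided between them. Cox7a2l, a factor of respiratory supercomplexes, had a log2 fold change of -0.24 and was not called.

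Muscle and common forms of the same subunit were set side by side in TPM, which is per length. Cox8b, the muscle form of subunit 8 (rn7, chromosome 1, 195977183 to 195978643, minus strand), was at 271 and 296 TPM in YAP5SA and at 673 and 808 TPM in YAP5SA-S94A. The YAP5SA libraries were near each other and far below both YAP5SA-S94A libraries, and the log2 fold change was -1.38 (SE 0.114, limma adjusted p = 0.000185), which left 38.3% of the YAP5SA-S94A mean. Cox8a, the common form (rn7, chromosome 1, 204402118 to 204404439, minus strand), was at 1048 and 808 TPM against 1294 and 1099 TPM (-0.37, SE 0.144) and was not called (limma adjusted p = 0.0873). The share of Cox8b in the sum of the pair was 20.6% and 26.8% in YAP5SA and 34.2% and 42.4% in YAP5SA-S94A, a difference of -14.6 percentage points. The shares did not overlap, and the exact two-sided permutation test of 2 libraries against 2 gave p = 0.333, the smallest it can give.

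The upstream sequences of this pair are shown because its members sit on 1 chromosome, encode the same subunit and differed most. Each is the 250 bases before the RefSeq start of the gene in build GRCr8, 5′ to 3′ on the gene's strand, at chr1:205408274-205408523 (minus strand) for Cox8b and chr1:213833624-213833873 (minus strand) for Cox8a. Capitals mark the letters CCGGAAG or their reverse complement, the core of the sites bound by ETS factors such as GABPA.
Cox8b: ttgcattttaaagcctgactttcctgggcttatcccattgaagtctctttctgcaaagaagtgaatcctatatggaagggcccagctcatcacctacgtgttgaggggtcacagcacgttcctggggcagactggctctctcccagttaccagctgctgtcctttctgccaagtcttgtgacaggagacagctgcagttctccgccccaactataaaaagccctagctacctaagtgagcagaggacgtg
Cox8a: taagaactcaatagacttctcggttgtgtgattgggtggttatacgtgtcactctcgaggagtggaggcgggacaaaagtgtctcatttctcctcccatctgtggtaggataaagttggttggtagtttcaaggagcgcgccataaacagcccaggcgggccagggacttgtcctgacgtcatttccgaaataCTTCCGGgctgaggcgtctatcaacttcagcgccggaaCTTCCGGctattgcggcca
The Cox8a window held these letters on the opposite strand, in 2 places that begin 57 and 19 bases before the start. The Cox8b window held none of the 5 motifs searched, also with the 50 bases after the start included. With those 50 bases the Cox8a window also held the YY1 letters AAGATGGC and the oestrogen-related receptor letters CAAGGTCA. Neither lies wholly in the sequence shown. In the 250 bases the count of CpG was 4 for Cox8b and 15 for Cox8a, beside a median of 14.5 over the 38 members with a window.

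Cox6a2, the heart and muscle form of subunit 6a, was at 2036 and 1647 TPM in YAP5SA and at 2425 and 2340 TPM in YAP5SA-S94A (limma log2 fold change -0.38, SE 0.118, adjusted p = 0.045). Cox6a1, the common form, was at 1202 and 1033 TPM against 1421 and 1348 TPM (-0.31, SE 0.103, limma adjusted p = 0.0554). Cox6a2 made up 62.9% and 61.5% of this pair in YAP5SA and 63.1% and 63.4% in YAP5SA-S94A, so the muscle form was the larger one in every library. The difference of its share was -1.08 points, against -14.6 points for Cox8b.

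Cox7a2, the common form of subunit 7a, was at 1036 and 1178 TPM in YAP5SA and at 1435 and 1450 TPM in YAP5SA-S94A (limma log2 fold change -0.38, SE 0.0963, adjusted p = 0.0208). Cox7a1, the muscle form, was at 3.43 and 3.53 TPM against 4.02 and 3.04 TPM (-0.01, limma adjusted p = 0.979), between 0.209% and 0.33% of the pair. The forms of YAP overlapped in Cox7a1. Its value is uncertain, because it overlaps Capns1 on the opposite strand, at 381 TPM, and whether counting used the strand is not given in the sources used here.

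Cox6b1 and Cox4i1 were likewise the only abundant forms of their subunits. Cox6b1 was at 1350 and 1198 TPM in YAP5SA and at 1569 and 1508 TPM in YAP5SA-S94A (log2 fold change -0.27, limma adjusted p = 0.066). Cox6b2, known as the testis form, was at 7.87 and 5.05 TPM against 5.23 and 5.01 TPM (0.26, limma adjusted p = 0.424), with the forms overlapping. Cox4i2, known as a form of lung and of low oxygen, was at 10.6 and 9.02 TPM against 7.71 and 8.55 TPM (0.24, limma adjusted p = 0.315). It is the 1 member of 45 whose YAP5SA libraries both lay above both YAP5SA-S94A libraries, where 4624 of the 13420 genes tested did so. Cox4i2 made up 0.592% and 0.534% of its pair in YAP5SA and 0.327% and 0.383% in YAP5SA-S94A, and Cox6b2 0.58% and 0.42% against 0.332% and 0.331%. These small shares were higher in YAP5SA, with no overlap and an exact two-sided permutation p of 0.333 each, the smallest possible. The 3 complex IV genes not named by the rule, Cox6c, Cox7b and Cox7a2l, ranged in log2 fold change from -0.32 to -0.24 and none was called.

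Fewer complex IV genes were called lower without either YAP5SA-S94A library, and their share then lay nearer that of all genes. The number was 4 with no filter (background 6.62%) and 4 with no intensity trend (background 12.7%). It was 14 with the mitochondrial chromosome left out of the TPM sum (background 19.6%) and 14 with quantile normalization (background 18.2%).

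**Figure D2:**
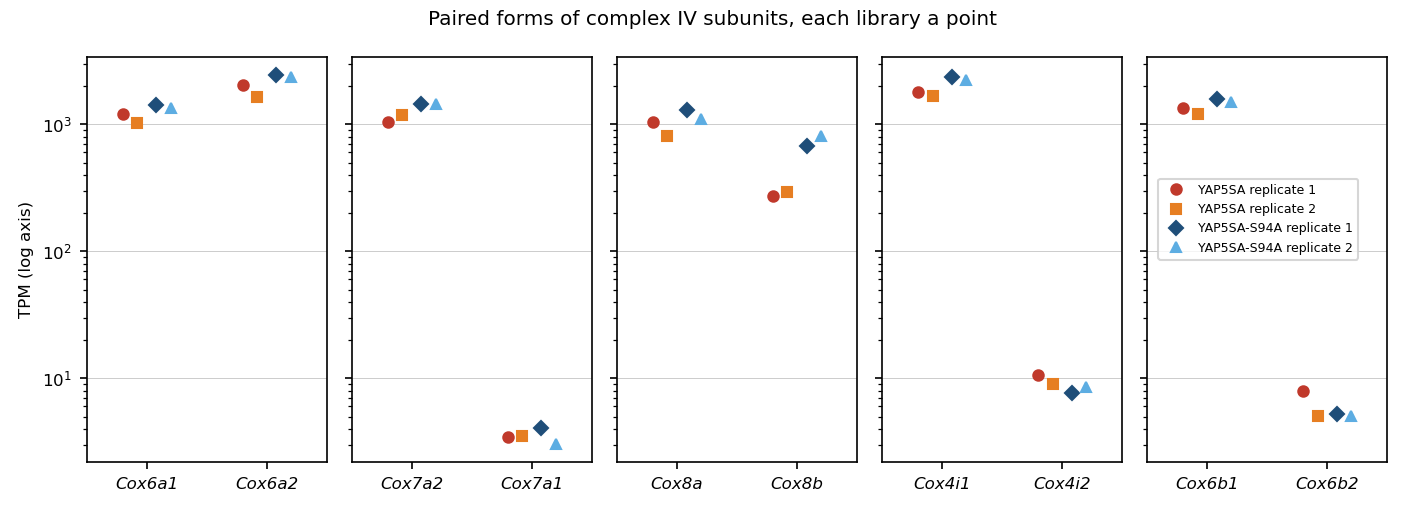
TPM on a log axis of 5 pairs of complex IV subunit forms, each library a point (n = 2 per YAP form). Cox8b is the partner that stands apart, at 271 and 296 TPM in YAP5SA and 673 and 808 TPM in YAP5SA-S94A, while Cox7a1, Cox4i2 and Cox6b2 lie far below their partners in all 4 libraries.

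In ATP synthase, 8 of 18 genes fell, where 15.5% of all genes were called lower. In 17 the log2 fold change was below 0, and the median was -0.26. The catalytic head, F1, held the most abundant member. Atp5f1b, the catalytic beta subunit (rn7, chromosome 7, 515454 to 521858, plus strand), was at 3396 and 3336 TPM in YAP5SA and at 5326 and 5187 TPM in YAP5SA-S94A (limma log2 fold change -0.64, SE 0.0877, adjusted p = 0.00167). It ranked 16 among all genes by mean TPM. Atp5f1a, the alpha subunit that alternates with beta in the head, was at 1563 and 1518 TPM against 2363 and 2306 TPM (-0.60, SE 0.0849, limma adjusted p = 0.00197). Both genes fell to nearly the same extent, and the TPM of Atp5f1a per unit of Atp5f1b lay between 0.444 and 0.46 in the 4 libraries.

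Atp5f1c, the gamma subunit of the central shaft, was at 608 and 637 TPM in YAP5SA and at 827 and 833 TPM in YAP5SA-S94A (limma log2 fold change -0.41, SE 0.0843, adjusted p = 0.00914). It overlaps Kin on the opposite strand, which was at 26.8 TPM. Thus 3 of the 5 F1 genes fell, where 15.5% of all genes were called lower. The 2 others, delta (Atp5f1d) and epsilon (Atp5f1e), had log2 fold changes of -0.12 and -0.10 and overlapped between the forms.

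The peripheral stalk holds the head still while the shaft turns. Of its 4 genes 2 fell, where 15.5% of all genes were called lower. Atp5pb, subunit b, was at 540 and 590 TPM in YAP5SA and at 904 and 897 TPM in YAP5SA-S94A (limma log2 fold change -0.67, SE 0.0892, adjusted p = 0.00147). Atp5po, the oligomycin sensitivity protein that joins stalk and head, was at 1081 and 1059 TPM against 1388 and 1282 TPM (-0.32, SE 0.0884, limma adjusted p = 0.0311). The difference in Atp5pb was the larger, and neither gene overlapped between the forms. The other two, Atp5pd and Atp5pf, had log2 fold changes of -0.31 and -0.10 and were not called.

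The membrane ring is built of c subunits, whose identical mature protein comes from 3 genes. Atp5mc1 was at 760 and 695 TPM in YAP5SA and at 997 and 895 TPM in YAP5SA-S94A (limma log2 fold change -0.38, SE 0.0982, adjusted p = 0.0242). Atp5mc2 was at 978 and 856 TPM against 1030 and 957 TPM (-0.12, limma adjusted p = 0.414), with the forms overlapping. Atp5mc3 was at 1237 and 1262 TPM against 1461 and 1350 TPM (-0.17, limma adjusted p = 0.189), with no overlap. Of their sum Atp5mc1 took 25.5% and 24.7% in YAP5SA and 28.6% and 28.0% in YAP5SA-S94A, a difference of -3.15 points, with an exact two-sided permutation p of 0.333, the smallest possible. Atp5mc3 had the largest share in every library, from 41.6% to 44.9%.

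Of the 5 small subunits around the ring, some of which hold the enzyme's dimer together, 1 was called. This is near the 15.5% of all genes called lower. Atp5mf, subunit f, was at 860 and 864 TPM in YAP5SA and at 1089 and 1022 TPM in YAP5SA-S94A (limma log2 fold change -0.29, SE 0.0859, adjusted p = 0.038). It was the smallest change among the 20 called members. The other 4 ranged from -0.22 for Atp5mg to 0.12 for Atp5mpl, the 1 ATP synthase gene above 0.

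Atp5if1 is not a subunit but the inhibitor that binds F1 and stops ATP synthase from running backwards when the membrane potential fails. It was at 575 and 655 TPM in YAP5SA and at 1051 and 1068 TPM in YAP5SA-S94A, and the log2 fold change of -0.79 (SE 0.0965, limma adjusted p = 0.00104) was the largest of the ATP synthase genes. The forms did not overlap, and the mean in YAP5SA was 58.0% of that in YAP5SA-S94A. Per unit of Atp5f1b its TPM was 0.169 and 0.196 in YAP5SA and 0.197 and 0.206 in YAP5SA-S94A, so inhibitor and catalytic subunit fell together, with both YAP5SA ratios below the others. With no intensity trend the number of ATP synthase genes called lower was 4 (background 12.7%), and with no filter 5 (background 6.62%). Fewer ATP synthase genes were also called lower without either YAP5SA-S94A library.

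**Figure D3:**
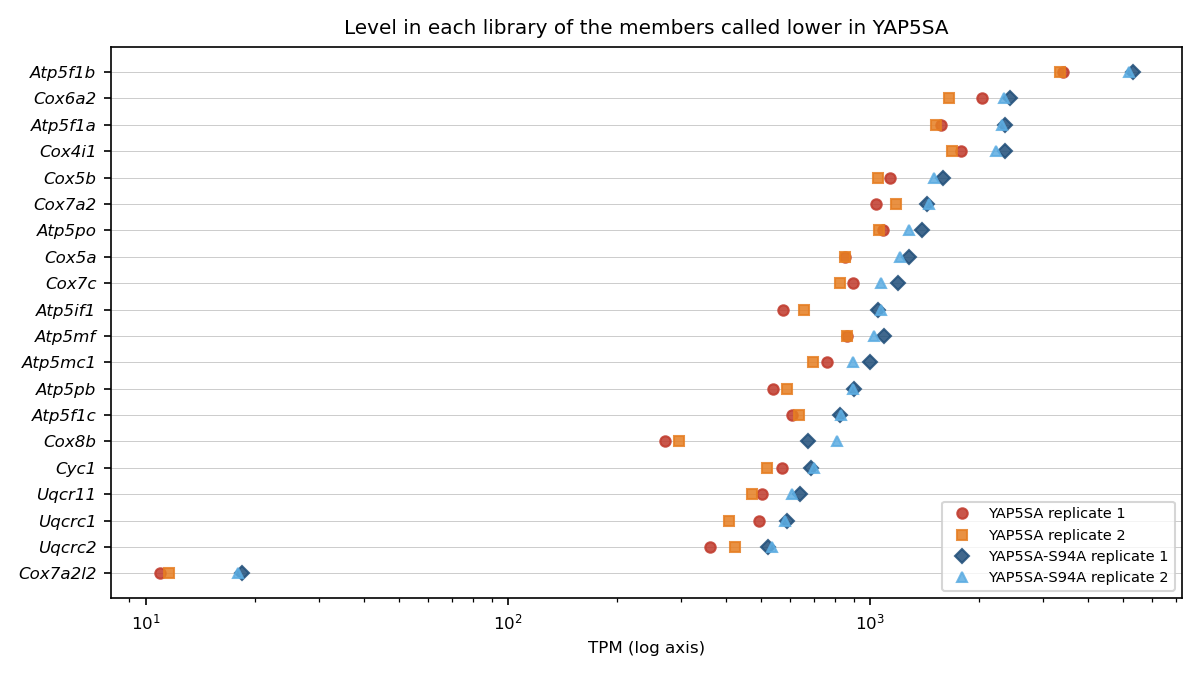
TPM on a log axis of the 20 members called lower in YAP5SA, each library a point (n = 2 per form). In each gene the 2 YAP5SA points lie left of the 2 YAP5SA-S94A points; Atp5f1b is highest, between 3336 and 5326 TPM, and Cox7a2l2 lowest, between 10.9 and 18.5 TPM.

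Summed over the 45 members, 35640 and 35648 TPM in the YAP5SA libraries stood against 46838 and 45209 TPM in the YAP5SA-S94A libraries, or 3.56% against 4.60% of all TPM on average. The sum in YAP5SA was 77.4% of that in YAP5SA-S94A, and 73.7% with the mitochondrial chromosome left out of the TPM sum. By complex it was 84.7% for complex III and cytochrome c, 75.6% for complex IV and 77.0% for ATP synthase. The sums did not overlap in any of the 3, and each exact two-sided permutation test of 2 libraries against 2 gave 0.333, the smallest p it allows. Atp5f1a and Atp5f1b took a large part of the sum, and without them it was 80.0% of that in YAP5SA-S94A.

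Mitochondrial DNA encodes further subunits of the same complexes. Of these 6 genes 5 fell, where 15.5% of all genes were called lower, and the median log2 fold change was -0.86. With no filter on low genes 1 of the 6 was called (background 6.62%). ATP6, the channel subunit of ATP synthase, was at 4204 and 5040 TPM in YAP5SA and at 8578 and 10080 TPM in YAP5SA-S94A (-1.01, SE 0.129, limma adjusted p = 0.00122). Its partner ATP8, whose reading frame overlaps that of ATP6 on the same strand, had a log2 fold change of -0.90. For complex IV, COX2, which binds cytochrome c, was at 4162 and 5834 TPM against 8716 and 9394 TPM (-0.88, limma adjusted p = 0.00588), and COX3 had a log2 fold change of -0.84.

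COX1, the catalytic core of complex IV, was at 20085 and 26505 TPM against 30402 and 32646 TPM (-0.45, SE 0.148, limma adjusted p = 0.0553) and was not called. CYTB, the mitochondrially encoded subunit of complex III, had -0.48 and was called. None of the 6 genes overlapped between the forms, and YAP5SA replicate 1 was the lowest library in each. Summed, the mitochondrially encoded genes in YAP5SA were at 71.9% of YAP5SA-S94A for complex III, 66.3% for complex IV and 50.8% for ATP synthase.

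Other genes of the pathway were taken from lists chosen by function, the 6 mitochondrially encoded genes included. Tested were also 39 genes of complex I and 8 of complex II. Assembly factors numbered 9 for complex III, 30 for complex IV and 6 for ATP synthase. With them stood 8 carriers and 14 transcription factors and cofactors, and Ndufa4, on the complex I and complex IV lists, was counted once. Over all of them 40 fell and 6 rose, where 15.5% of all genes were called lower and 17.4% higher. Without YAP5SA-S94A replicate 1 these counts were 20 and 2, and with replicate 2 of that form left out they were 23 and 5. With no filter 25 fell (background 6.62%), and with no intensity trend 24 (background 12.7%). The list of complex I, which feeds electrons into the chain from NADH, had 13 of 39 genes lower and 1 higher. Its median was -0.22, where 15.5% of all genes were called lower. Ndufa4, also on the complex IV list, is 1 of the 13. With YAP5SA-S94A replicate 1 left out 2 of 39 were called lower (5.1%, background 9.78%), with replicate 2 of that form left out 3 of 39 (7.7%, background 9.79%), and with no intensity trend 4 of 39 (10.3%, background 12.7%). In these settings the share was below that of all genes. Ndufv1, the NADH-binding subunit, had -0.59, Ndufa6 had -0.58, Ndufv2 -0.51 and Ndufa9 -0.46. Complex II, succinate dehydrogenase, had 4 of 8 genes lower, with a median of -0.41. They were the flavoprotein Sdha (-0.54), the iron-sulfur protein Sdhb (-0.57), the anchor Sdhd (-0.54) and the assembly factor Sdhaf1 (-0.51).

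Assembly factors did not move as a block. For complex III 1 of 9 factors fell (11.1%, background 15.5%) and 1 rose, with a median of 0.02, where 17.4% of all genes were called higher. Uqcc2 rose by 0.51 on the log2 scale, from 108 and 91.5 TPM in YAP5SA-S94A to 145 and 139 TPM in YAP5SA, whereas Uqcc3 had -0.36, and the call of Uqcc2 was lost without YAP5SA-S94A replicate 2 and that of Uqcc3 without either YAP5SA-S94A library. For complex IV 7 of the 30 measured genes of the list fell (23.3%, background 15.5%), Ndufa4 among them, and 2 rose, with a median of -0.09. Fewer of them fell without either YAP5SA-S94A library, and their share then lay nearer that of all genes. The number that rose was 4 without YAP5SA replicate 1 and 1 without YAP5SA-S94A replicate 1. Sco1, a copper chaperone of complex IV, was at 35.3 and 42.7 TPM in YAP5SA and at 20.6 and 23.0 TPM in YAP5SA-S94A (0.80, limma adjusted p = 0.00505). The factors Higd2a (-0.79), Smim20 (-0.65) and Coa5 (-0.59) went the other way.

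For ATP synthase 3 of 6 assembly factors fell, with a median of -0.30, and without each library in turn between 1 and 4 did so. With no filter or with no intensity trend it was 1. Fmc1 was at 19.5 and 14.1 TPM in YAP5SA and at 34.6 and 38.4 TPM in YAP5SA-S94A (-1.09, limma adjusted p = 0.00312), Atpaf2, the chaperone of the alpha subunit, had -0.50 and Tmem242 had -0.38. Among 8 carriers that serve the enzyme 4 fell and none rose, with a median of -0.30. These were the phosphate carrier Slc25a3 (-0.32), the heart and muscle ADP/ATP carrier Slc25a4 (-0.50), and the outer membrane channels Vdac1 (-0.52) and Vdac3 (-0.65). Fewer carriers were called without either YAP5SA-S94A library, and their share then lay nearer that of all genes.

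**Figure D4:**
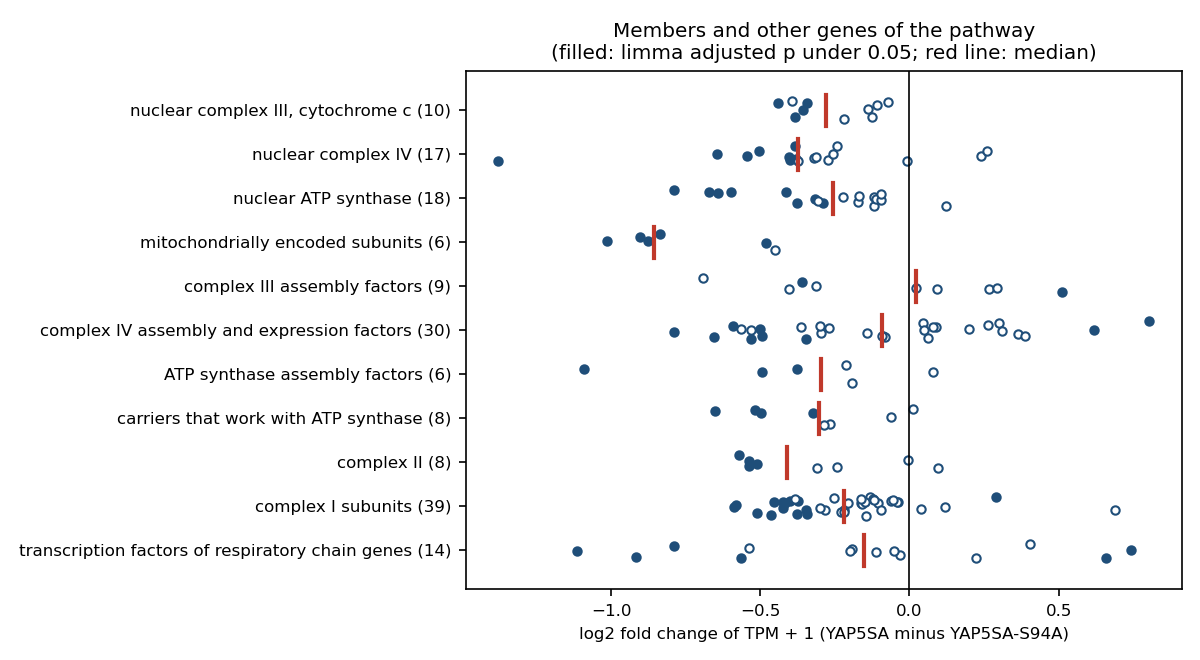
Log2 fold change of TPM + 1 (YAP5SA minus YAP5SA-S94A) of each member and each other gene of the pathway, 1 row per list with the number tested in brackets; filled points have a limma adjusted p under 0.05 and red lines are medians. The mitochondrially encoded subunits lie lowest, with a median of -0.86, and the medians of the assembly factors of complexes III and IV lie near 0, at 0.02 and -0.09.

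Among 14 transcription factors and cofactors known for control of respiratory chain genes, 4 fell and 2 rose, with a median of -0.15. Those that fell were 28.6% of the list, where 15.5% of all genes were called lower and 17.4% higher. Esrrg, an oestrogen-related receptor of heart muscle, was at 17.8 and 19.0 TPM in YAP5SA and at 39.1 and 43.0 TPM in YAP5SA-S94A (limma log2 fold change -1.11, SE 0.125, adjusted p = 0.000729). Ppargc1a, the coactivator PGC-1alpha, was at 24.0 and 17.3 TPM against 37.8 and 41.1 TPM (-0.92, SE 0.169, limma adjusted p = 0.0062). In both genes the YAP5SA libraries were well below the others. Pprc1, a related coactivator, had 0.66, and Tfb1m, which methylates mitochondrial ribosomal RNA, had 0.74. Without YAP5SA-S94A replicate 1 none was called higher, and without YAP5SA replicate 2 there was 1. With no filter 2 fell (14.3%, background 6.62%) and 1 rose, and with no intensity trend 2 fell (14.3%, background 12.7%). These are levels of messenger RNA, and no test linked them to the members.

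Promoters of the members were described by the letters they hold. RefSeq windows of 300 bases, 250 before and 50 after the start in GRCr8, were found for 38 of the 45 members and for 9723 genes tested. Atp5pd, Cox4i2, Cox6a1, Cox6c, Cyc1, Uqcr11 and Uqcrb were not matched. Motifs were searched on both strands, and a match is a description of the window, not a bound site. The core letters of NRF1, GCGCATGC, were in 6 member windows (15.8%), in 5.16% of windows of genes tested and in 2.47% of all windows. The ETS letters CCGGAAG were in 12 (31.6%), against 18.2% and 8.75%. The YY1 letters AAGATGGC were in 6 (15.8%), against 5.74% and 3.17%.

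At least 1 of these 3 was in 17 of the 38 member windows, 44.7% against 26.3% of genes tested. The letters CAAGGTCA, of oestrogen-related receptors, were in 2 member windows, Atp5mc3 and Cox8a, neither of which was called, with a share of 5.26% against 0.843% of genes tested. The TEAD letters GGAATG were in 1 member window, that of Cox5a, a share of 2.63% against 11.2% of genes tested and 14.2% of all windows. The median GC content of the 250 bases before the start was 54.6% in members, against 60.4% over genes tested.

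Sequences of 2 called members are shown, Cox5a as the one with the TEAD letters and Uqcrc1 as one with the NRF1 letters. Each is again the 250 bases before the RefSeq start in GRCr8, 5′ to 3′ on the plus strand, at chr8:66818034-66818283 for Cox5a and chr8:118467973-118468222 for Uqcrc1. Capitals mark GGAATG in the first and GCGCATGC in the second.
Cox5a: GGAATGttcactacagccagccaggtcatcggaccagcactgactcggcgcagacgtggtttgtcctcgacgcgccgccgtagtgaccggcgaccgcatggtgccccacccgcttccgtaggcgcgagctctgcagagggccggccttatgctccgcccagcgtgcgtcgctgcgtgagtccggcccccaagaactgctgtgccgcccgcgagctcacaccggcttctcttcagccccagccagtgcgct
Uqcrc1: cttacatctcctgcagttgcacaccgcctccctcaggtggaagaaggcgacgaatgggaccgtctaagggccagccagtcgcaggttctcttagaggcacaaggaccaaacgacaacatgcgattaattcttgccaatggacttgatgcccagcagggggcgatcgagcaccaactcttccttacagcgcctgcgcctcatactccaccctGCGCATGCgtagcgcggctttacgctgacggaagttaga
In Cox5a the match is at the far end of the window, 250 bases before the start, and in Uqcrc1 it begins 39 bases before it. Both genes were picked from those that fell, with log2 fold changes of -0.54 and -0.38. Of the 6 members with the NRF1 letters 2 were called, where 18 of the 38 members with a window were called. Among the 12 with the ETS letters 5 were called, and among the 6 with the YY1 letters 3.

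Markers of other cell types are given beside the members, where 15.5% of all genes tested were called lower and 17.4% higher. Endothelial markers summed to 17.1 and 16.0 TPM in YAP5SA and to 34.7 TPM in each YAP5SA-S94A library, with 1 of 5 tested lower. That gene was Kdr, and without it the sums were 13.1 and 12.6 TPM against 13.4 and 14.9 TPM. Epicardial and mesothelial markers summed to 77.9 and 64.9 TPM in YAP5SA and to 21.7 and 23.8 TPM in YAP5SA-S94A, with 3 of 5 higher. This sum rests on Krt19, at means of 37.2 against 7.35 TPM, and Upk3b, at 20.3 against 0.577 TPM. Msln had a log2 fold change of 0.70, whereas Wt1 (-0.20) and Tbx18 (-0.34) lay below 0 and were not called. Smooth muscle and pericyte markers summed to 194 and 172 TPM against 115 and 118 TPM, with 1 of 5 higher. That gene was Cnn1, at means of 107 against 51.3 TPM, and the difference in this sum rests mostly on it. The others ranged in log2 fold change from -0.18 (Cspg4) to 0.38 (Rgs5) and were not called. More of the 5 were called higher without YAP5SA replicate 2. Fibroblast markers summed to 8527 and 6748 TPM against 7243 and 6888 TPM, with 2 of 8 lower and none higher, or 2 higher without YAP5SA replicate 2, and macrophage markers to 113 and 103 TPM against 124 and 121 TPM, with Csf1r higher (1.40) and Cd68 (-0.60) and C1qa (-0.68) lower. The 4 erythroid markers were listed at 0 in every library, as were Ucp1 and Adipoq of the brown adipocyte list, whose remaining gene, Cidea, was at 60.0 and 57.2 TPM against 198 and 207 TPM. The part of these cell types in the result was not tested.

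**Figure D5:**
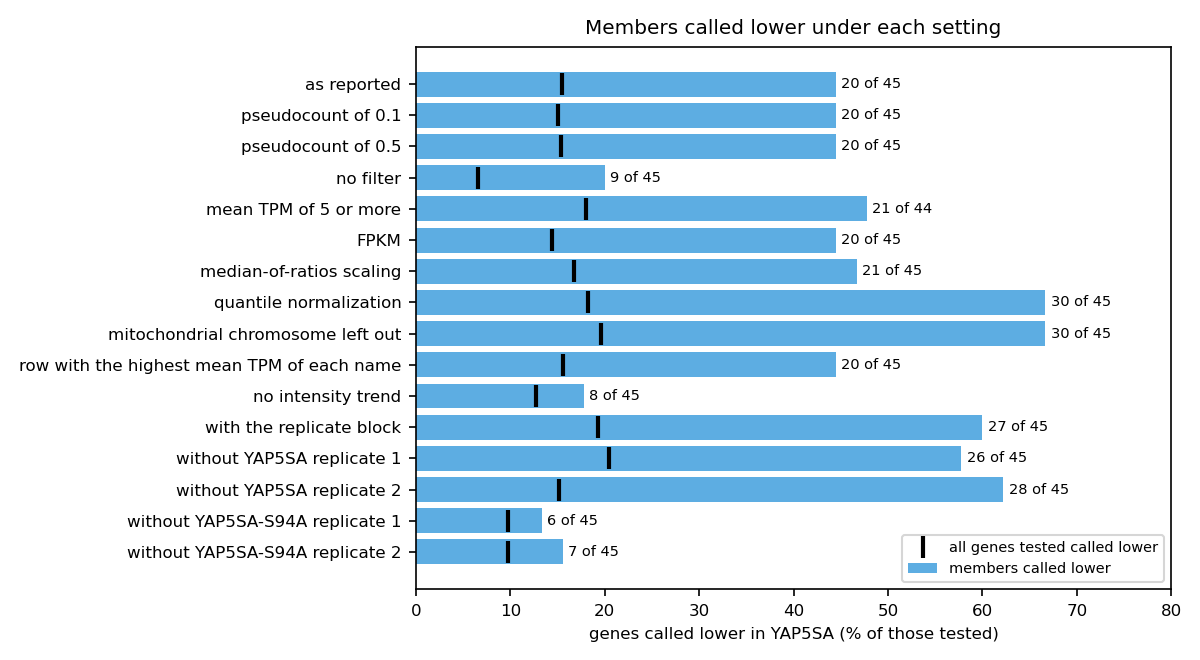
Share of the members called lower in YAP5SA under each setting (bars, with the number called of those tested), and the share of all genes tested called lower under the same setting (black marks). The share of members runs from 6 of 45 without YAP5SA-S94A replicate 1 to 30 of 45 with quantile normalization or without the mitochondrial chromosome, and lies above the black mark in each setting.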

How the data were processed

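The 4 RNA-seq libraries, 2 per YAP form, were analysed. Per the labels' protocols they were directional, from poly(A) RNA. Per the submitters' processing notes the rat build was rn7 and the tools included HISAT2 2.2.1 and StringTie 2.2.1, and whether counting used the strand is not given in the sources used here. The deposited TPM values were computed by the authors and have the same total in each library, so a gene's level depends on all others. The deposited FPKM values differ from TPM by 1 factor per library. The deposited coverage column was used only for depth, as the highest ratio of coverage to FPKM. Depth per gene in reads was not used here.

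Entries with the same name were summed. Genes with a mean TPM of 1 or more (13420) were tested on log2(TPM + 1), a scale that understates the change of low genes, with limma 3.58.1 in R 4.3.3, a variance trend with intensity (degrees of freedom 2 residual, 5.09 prior) and the Benjamini-Hochberg adjustment over all of them, called under 0.05. The members and lists were chosen with earlier results of these data known. The genes named are every called member, both partners of the isoform pairs, Cyc1, Cycs, Uqcrfs1 and Atp5if1, the 6 mitochondrially encoded subunits, and in each other list up to 4 called genes with the smallest p. Myh6, Tnni3, Nppa, Kdr, Csf1r, Cd68, C1qa, Cidea, Yap1 and Ccn1 stand outside that rule and were chosen after their values were seen. The same holds for Upk3b, Krt19, Msln, Wt1, Tbx18, Tnnt2, Actn2, Cnn1, Cspg4, Rgs5 and members named to complete a group. Of the 32 complex IV assembly and expression genes listed, 30 were measured, and Ndufa4 is on that list and on the complex I list but counted once in the total. Gene coordinates are those of the deposited tables (rn7). Promoters are RefSeq windows in GRCr8, matched by symbol and never by coordinate. Scripts were tested on simulated data, with 200 genes over 200 TPM changed by known amounts. A log2 change of -0.3 was called in 4% of genes so changed, and in 52% with 4200 other genes changed. For -0.5 the shares were 10% and 82%, and for -1 they were 90% and 98%. A member near -0.3 that was not called is thus not shown to be unchanged. Figures were drawn with matplotlib 3.10.9 in Python 3.11.15, from tables made with pandas 2.3.3 and numpy 2.4.6. Alternatives were other pseudocounts, filters, units, scalings and variance models, a stricter threshold, each library left out in turn, and a block for the replicate number.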

Additional observations from a re-analysis of the deposited data

How the results depend on the processing

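Of the 45 members, 20 were called lower. The count was 9 with no filter on low genes, 8 with no intensity trend and 8 at an adjusted p under 0.01, and it ran from 6 to 28 when each library was left out in turn, with the lowest values without YAP5SA-S94A replicate 1 (6) and replicate 2 (7). No member was called higher in any setting, and 9 were called in none. Over all genes the 2083 called lower became 1046 at an adjusted p under 0.01 and ranged from 1312 to 2739 over left-out libraries, and the 2337 called higher became 1439 at that threshold. For the other genes of the pathway, the 40 called lower became 25 with no filter and 24 with no intensity trend, and ranged from 20 to 50 over left-out libraries, while the 6 called higher ranged from 2 to 9.

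With the mitochondrial chromosome left out, the log2 ratio of the summed TPM was -0.31 for complex III and cytochrome c, -0.47 for complex IV and -0.45 for ATP synthase, against -0.24, -0.40 and -0.38 as reported. Over left-out libraries that of complex III ranged from -0.26 to -0.22. The sign of the log2 fold change turned for Cycs (0.021 without YAP5SA replicate 1, range -0.27 to 0.021), for Cox7a1 (0.0068 without YAP5SA replicate 1 and 0.15 without YAP5SA-S94A replicate 1, range -0.17 to 0.15) and for Cox6b2 (-0.016 without YAP5SA replicate 1, range -0.016 to 0.54). It also turned for Atp5mk (0.027), Atp5me (0.079), Atp5pf (0.085) and Uqcrh (0.053) without YAP5SA replicate 1, for Uqcrq (0.22) and Atp5f1d (0.10) without YAP5SA replicate 2, and for Atp5f1d (0.033) without YAP5SA-S94A replicate 1. None of these 9 members was called as reported. The cause was not tested.

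With the replicate number of the titles as a block, 27 members were called lower, the 20 as reported all among them, and 0 higher. Deviations of same-numbered libraries from the mean of their form correlated at 0.101 across genes tested, which does not show that the numbers pair the libraries. With 2 libraries per form, replicates 1 and 2 give the same correlation. The library names number the libraries otherwise than the titles, so a shared culture under those names was not tested. A left-out library leaves 1 in its form, assumed to vary like the others, and with 2 per form the precision of each difference is low.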
